A study of Rattus norvegicus with 12 samples.

Results

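Ankrd1 (ENSRNOG00000018598), Rcan1 (ENSRNOG00000001979) and ENSRNOG00000000875 were 3 of the 32883 rat genes in the count table, of which 15786 had at least 1 count. The genes were taken by identifier from a list of genes tied to hypertrophic stress, put together when the phenylephrine responses of these libraries were already known. The contrast of phenylephrine against mock is therefore given as a description with no p-value. The measurements behind the list are not recorded. It names the precipitate against the input beside the phenylephrine response, and states no condition on it. That contrast was tested as if it had not entered the choice, and if it had, its p-values would be too small. The names Ankrd1 and Rcan1 come from the list. Neither the count table nor the reference table, which holds 47357 genes and 0 Ensembl identifiers, pairs an identifier with a symbol. The list carried Fhl1 as a working name for the third gene, which could not be checked, so that gene is given by its identifier and no role is described for it.

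The cells were ventricular cardiomyocytes of neonatal Wistar rats, 1 to 2 days old, isolated by trypsin digestion on a percoll gradient. They were either exposed for 24 h to phenylephrine (PE), which activates alpha-adrenergic receptors and makes heart muscle cells grow, or mock treated. RNA was taken from an overnight precipitate made with a Cpeb4 antibody (IP) or, without antibody, as total RNA (input), and 3′ end libraries were made from 200 ng. The 12 libraries are 3 each of IP from PE cells, IP from mock cells, input of PE cells and input of mock cells. No precipitate without the Cpeb4 antibody was analysed here, and the labels do not say whether replicates came from separate cultures. Because no identifier could be tied to a symbol, markers of cardiomyocytes and of other heart cells could not be examined. In such bulk RNA, fewer cells of a type and less RNA per cell cannot be told apart.

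As background, Ankrd1 is an ankyrin repeat protein that binds titin in the sarcomere and also enters the nucleus, and its transcript is a common marker of mechanical and adrenergic stress in heart muscle. Rcan1 binds the phosphatase calcineurin and restrains it. Calcineurin dephosphorylates NFAT factors, which then enter the nucleus, and an internal promoter of Rcan1 that yields a short isoform is an established NFAT target, so the transcript is often read as a gauge of calcineurin activity. Cpeb4 belongs to a family of proteins that bind cytoplasmic polyadenylation elements in 3′ ends of mRNAs and act on tail length and translation.

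For Rcan1 the RefSeq promoter table (GRCr8) holds 1 window, shown because this gene is a known calcineurin and NFAT target. It lies on the minus strand at chr11:45118187-45118486, inside the gene (45108123 to 45188065) and 69829 bases from its 5′ end, so it belongs to an internal start. The window runs 5′ to 3′ from 250 bases before to 50 bases after that start, and capitals mark the NFAT core GGAAA or its reverse complement TTTCC:
Rcan1: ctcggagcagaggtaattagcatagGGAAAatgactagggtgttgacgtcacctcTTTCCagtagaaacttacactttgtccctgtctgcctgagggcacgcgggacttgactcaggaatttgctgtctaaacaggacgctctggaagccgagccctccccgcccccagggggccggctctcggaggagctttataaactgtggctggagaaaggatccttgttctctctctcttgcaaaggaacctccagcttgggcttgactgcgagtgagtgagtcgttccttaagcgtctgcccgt

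The window holds 2 NFAT cores, at -225 to -221 and -195 to -191 from the start, searched on both strands. Of the 33469 windows of the same length in the table, 62.7% hold at least 1 such core and 28.5% hold at least 2, so the match is common. The AP-1 motif TGANTCA occurs at 1 place, -142 to -136, and in 7.33% of all windows. The TATA motif TATAAA occurs in 2 overlapping places on opposite strands, between -60 and -53. At least 1 such match stands in 14.2% of all windows and at least 2 in 2.62%. The MCAT motif CATTCC (14.2% of windows), the GATA core AGATAA (11.6%), the E-box CANNTG (72.1%) and the CArG box (1.64%) have no match in these letters. Counts of 3′ ends do not show from which start the Rcan1 reads came, and a match is not a binding site.

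Library totals ranged from 1423334 counts in input of mock replicate 3 to 30216559 in IP of PE replicate 1. All 3 genes passed the filter on low counts. Ankrd1 had 946 to 344401 counts in a library, ENSRNOG00000000875 had 201 to 63116 and Rcan1 had 59 to 14872. The smallest value, 59 Rcan1 counts in input of mock replicate 3, has an exact Poisson 95% interval of 44.9 to 76.1 counts, which covers counting error only. Levels are given as CPM, the counts after TMM scaling to equal library sizes, which corrects for a few transcripts filling much of a library. Mock replicate 2 and PE replicate 1 were known from earlier results to stand apart in both RNA pools. Their sample quality weights in limma were 0.217 (IP of PE cells), 0.0636 (IP of mock cells), 0.418 (input of PE cells) and 0.478 (input of mock cells), against 1.01 to 6.77 for the other 8 libraries.

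Ankrd1 was about 2 times as high in PE as in mock cells, in both RNA pools, and within a pool no library of one treatment reached into the other. Its level in IP was 7220, 4701 and 3792 CPM in PE replicates 1, 2 and 3, against 1850, 3414 and 2122 CPM in mock replicates 1, 2 and 3. In input it was 3767, 2476 and 2464 CPM in PE replicates 1, 2 and 3, against 1287, 1751 and 1273 CPM in mock replicates 1, 2 and 3. The highest library of each group was PE replicate 1 or mock replicate 2, in both pools. The log2 fold change of PE against mock was 1.09 (SE 0.32) in IP and 1.01 (SE 0.32) in input.

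**Figure D1:**
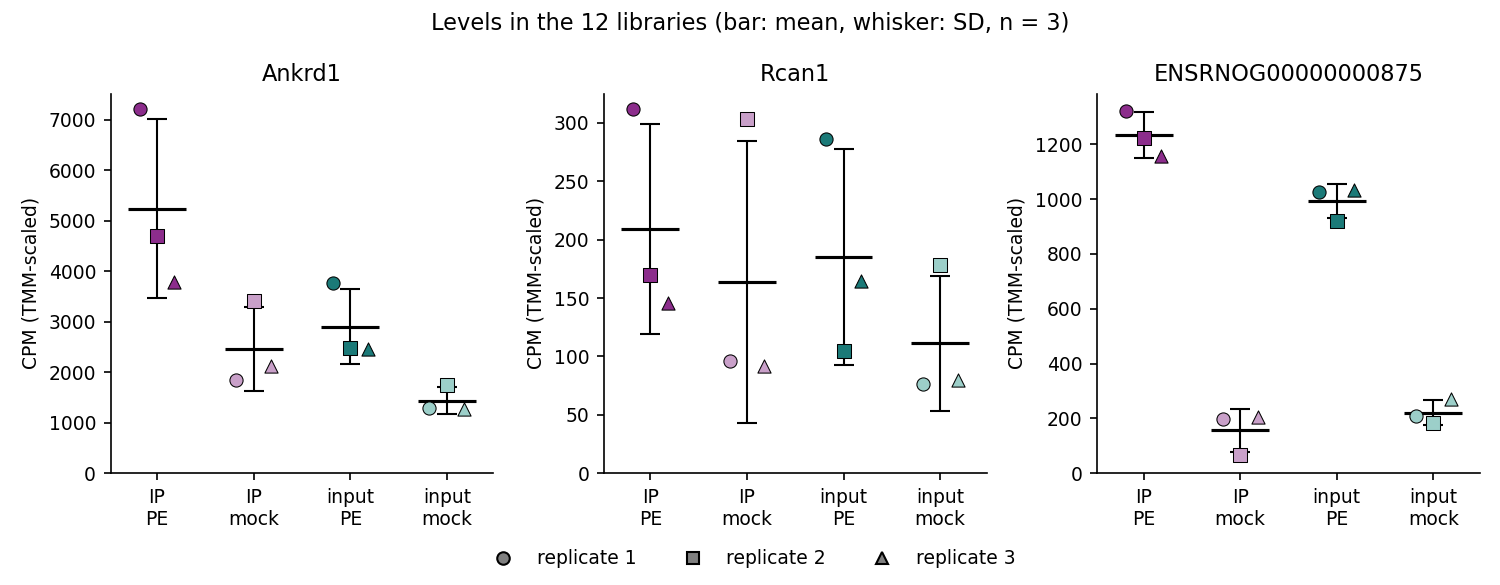
TMM-scaled CPM of each gene (vertical axes, starting at 0) in the 12 libraries, grouped by RNA pool and treatment. Points are libraries with the symbol giving the replicate number, bars are means and whiskers SD (n = 3). ENSRNOG00000000875 lies between 921 and 1323 CPM in the 6 PE libraries and between 66.9 and 270 CPM in the 6 mock libraries, while the groups of Rcan1 overlap.

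ENSRNOG00000000875 showed the widest separation of the 3 genes between treatments. Its level in IP was 1323, 1222 and 1158 CPM in PE replicates 1, 2 and 3, against 196, 66.9 and 204 CPM in mock replicates 1, 2 and 3. In input it was 1025, 921 and 1034 CPM in PE replicates 1, 2 and 3, against 208, 182 and 270 CPM in mock replicates 1, 2 and 3. Every PE library thus lay far above every mock library, and the one value apart from its group was the low IP of mock replicate 2. With TMM scaling the PE libraries were also close to each other, with a coefficient of variation of 6.75% in IP and 6.34% in input. It was 49.4% in IP of mock cells and 20.5% in input of mock cells. For Ankrd1 the coefficient was 33.9% in IP of PE cells and 25.8% in input of PE cells. As shares of library totals, ENSRNOG00000000875 held 1929 ± 138 CPM in IP and 744 ± 209 CPM in input of PE cells (SD, n = 3 each). The closeness in input thus depended on the scaling. The log2 fold change of PE against mock was 2.99 (SE 0.38) in IP and 2.17 (SE 0.37) in input, or 7.94-fold and 4.52-fold. Without IP of mock replicate 2, the log2 fold change in IP was 2.63.

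Rcan1 was higher on average in PE cells, but its groups overlapped in both pools. Its level in IP was 312, 170 and 146 CPM in PE replicates 1, 2 and 3, against 95.9, 303 and 91.7 CPM in mock replicates 1, 2 and 3. In input it was 287, 105 and 164 CPM in PE replicates 1, 2 and 3, against 76.1, 178 and 79.4 CPM in mock replicates 1, 2 and 3. PE replicate 1 and mock replicate 2 were the highest libraries of their groups in both pools, as for Ankrd1, and relative to the mean the spread was larger here, with a coefficient of variation of 42.9% in IP of PE cells and 73.9% in IP of mock cells. The log2 fold change of PE against mock was 0.35 (SE 0.52) in IP and 0.73 (SE 0.53) in input. Without IP of mock replicate 2 the value in IP was 1.16, and without IP of PE replicate 1 it was -0.06. Without input of mock replicate 2 the value in input was 1.25, and without input of PE replicate 1 it was 0.26.

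Leaving out both deviating replicates, mock 2 and PE 1, from IP and input moved the 3 genes unequally. On the remaining 8 libraries, the log2 fold change of PE against mock for Rcan1 was 0.74 (SE 0.30) in IP and 0.78 (SE 0.31) in input, or 1.67-fold and 1.72-fold. For Ankrd1 the values were 1.09 (SE 0.21) in IP and 0.94 (SE 0.21) in input. For ENSRNOG00000000875 they were 2.56 (SE 0.25) in IP and 2.02 (SE 0.24) in input. The libraries left out were the highest of their groups for Rcan1 in both pools, and few remained in each group. Leaving out deviating libraries also lowers the spread, so these SE can be too small. The part of library quality in the Rcan1 values was not tested.

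The same measures were set beside those of all genes. In IP, all 3 PE libraries lay above all 3 mock libraries for Ankrd1 and ENSRNOG00000000875, 2 of the 3 genes, and for 8.61% of the 10491 genes tested. In input this held for the same 2 genes and for 5.67% of all genes. These counts describe the choice of the genes, since the PE response was known when they were listed. Among the 5865 genes that averaged 10 CPM or more, the log2 fold change of ENSRNOG00000000875 ranked 17 from the top in IP and 61 in input. Ankrd1 ranked 483 in IP and 456 in input, and Rcan1 ranked 1881 in IP and 796 in input. Only 5 of these genes, ENSRNOG00000000875 included, had fold changes at least as high as its own in both pools, against 132 genes for the values of Ankrd1 and 448 for those of Rcan1. Over the 10491 genes tested, the median was 0.12 in IP and 0.06 in input.

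**Figure D2:**
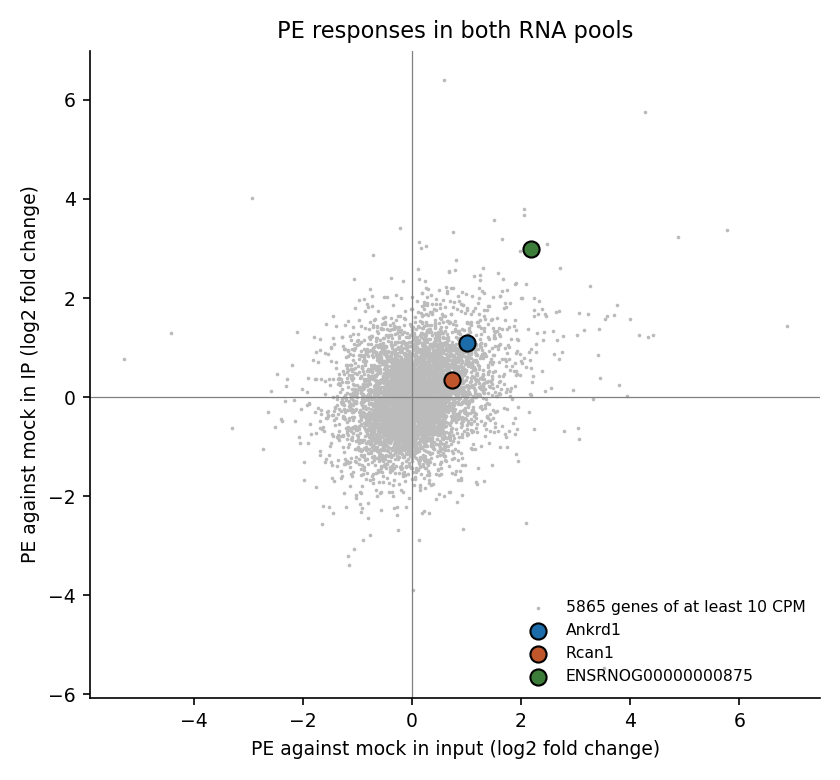
Log2 fold change of PE against mock in input (horizontal axis) and in IP (vertical axis) for 5865 genes with a mean of at least 10 CPM (grey) and the 3 genes (coloured). ENSRNOG00000000875 lies at the upper right edge of the cloud, at 2.17 and 2.99, while Rcan1 lies within it, at 0.73 and 0.35.

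Scale-free comparisons came from the ratio of counts of 2 genes within 1 library, which does not depend on library totals or TMM factors. Per 100 Ankrd1 counts, ENSRNOG00000000875 had 18.3, 26.0 and 30.5 counts in IP of PE replicates 1, 2 and 3, against 10.6, 1.96 and 9.61 in IP of mock replicates 1, 2 and 3. In input it had 27.2, 37.2 and 42.0 counts in PE replicates 1, 2 and 3, against 16.2, 10.4 and 21.2 in mock replicates 1, 2 and 3. In both pools each PE library was above each mock library, so ENSRNOG00000000875 stood higher relative to Ankrd1 in PE cells whatever the scaling.

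The ratio of Rcan1 to Ankrd1 moved the other way in IP. Per 100 Ankrd1 counts, Rcan1 had 4.32, 3.61 and 3.84 counts in IP of PE replicates 1, 2 and 3, against 5.18, 8.88 and 4.32 in IP of mock replicates 1, 2 and 3. The highest PE library and the lowest mock library differed only beyond the third digit, and in input the groups overlapped, with 4.22 to 7.61 in PE cells and 5.91 to 10.2 in mock cells. ENSRNOG00000000875 had 424 to 794 counts per 100 Rcan1 counts in IP of PE cells and 22.1 to 222 in IP of mock cells. In input it had 358 to 881 in PE cells and 103 to 341 in mock cells. No test was made on these ratios, since the PE response had entered the choice of the genes.

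**Figure D3:**
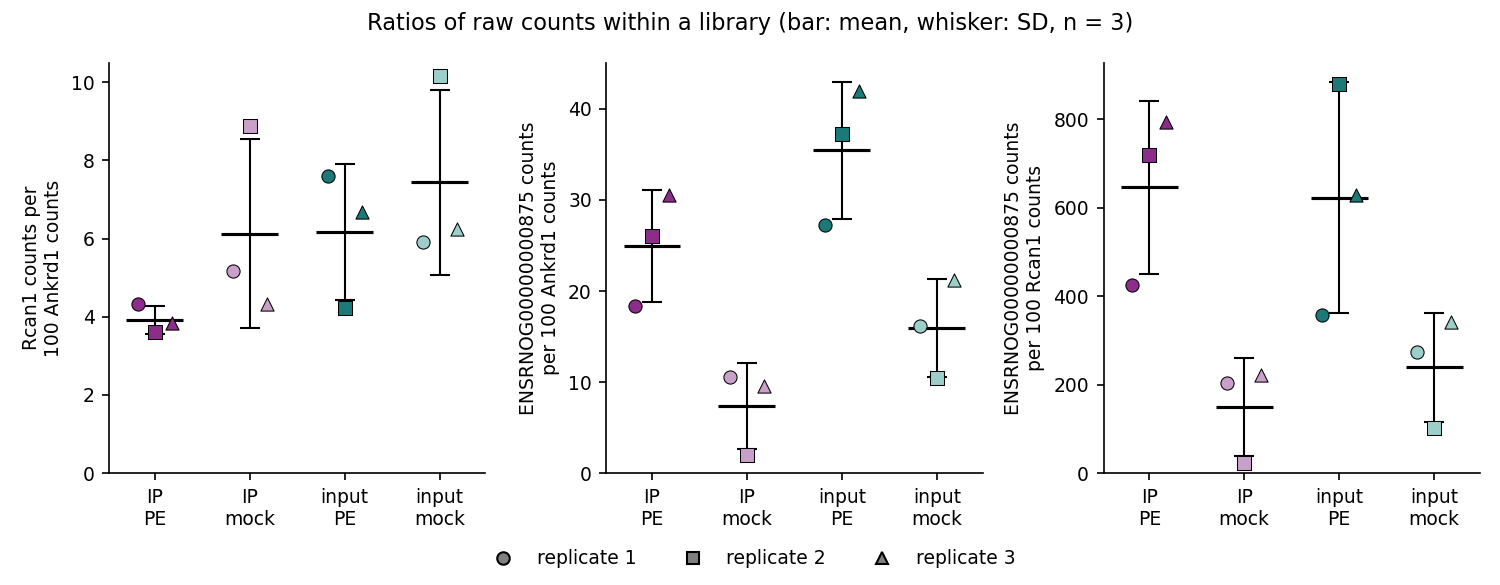
Counts of one gene per 100 counts of another within each of the 12 libraries (vertical axes, starting at 0), grouped by RNA pool and treatment. Points are libraries with the symbol giving the replicate number, bars are means and whiskers SD (n = 3). The ratio of ENSRNOG00000000875 to Ankrd1 is 18.3 to 42.0 in the 6 PE libraries and 1.96 to 21.2 in the 6 mock libraries, with no overlap within a pool.

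Set against the input, the Cpeb4 precipitates held more Ankrd1 relative to the TMM scaling. The contrast of IP against input gave a log2 fold change of 0.85 (SE 0.32, 95% interval 0.18 to 1.52) in PE cells and 0.78 (SE 0.32, interval 0.11 to 1.44) in mock cells. With libraries not taken as pairs, neither passed by itself (edgeR adjusted p = 0.238 in PE cells and 0.355 in mock cells, over 10491 genes). The lowest IP library was above the highest input library in each treatment, by 3792 against 3767 CPM in PE cells and 1850 against 1751 CPM in mock cells. The gaps were small beside the spread within groups. Averaged over both treatments, Ankrd1 was 1.76-fold higher in IP than in input (log2 fold change 0.81, SE 0.22, interval 0.34 to 1.29, edgeR adjusted p = 0.0409).

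The column names give input and IP of the same treatment and number a shared letter, and no label says that they came from the same cells. With such libraries taken as pairs, Ankrd1 passed in PE cells (log2 fold change 0.83, SE 0.20, edgeR adjusted p = 0.0425, beside 4.01% of all genes) and averaged (0.78, SE 0.14, edgeR adjusted p = 0.0048, beside 8.19%), and not in mock cells (0.74, SE 0.20, edgeR adjusted p = 0.0942).

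Without pairing, the averaged call for Ankrd1 was near the threshold in the main fit and depended on single libraries. Its sign was positive under all 20 alternatives. On all 12 libraries it also passed with DESeq2 size factors (edgeR adjusted p = 0.0463) and with no filter (edgeR adjusted p = 0.0167). The same held for the DESeq2 Wald test (adjusted p = 0.0174) and for limma with quality weights (adjusted p = 0.00289). No share of all genes was taken for these fits. Of 12 fits on 11 libraries, 8 lost the call. The edgeR adjusted p was 0.119 and 0.0647 without IP of PE replicates 1 and 2, and 0.0755 and 0.0573 without IP of mock replicates 2 and 3. It was 0.108 and 0.113 without input of PE replicates 2 and 3, and 0.108 and 0.106 without input of mock replicates 1 and 3. The lowest log2 fold change among these fits was 0.66. On the 8 libraries outside mock replicate 2 and PE replicate 1, the averaged value was 0.67 (SE 0.15, edgeR adjusted p = 0.00386), and the contrast in PE cells alone then passed too (log2 fold change 0.75, SE 0.21, edgeR adjusted p = 0.0289). In that fit 14.3% of all genes passed in the averaged contrast and 9.08% in PE cells. Its left-out libraries were picked because they stand apart in these same data, which lowers the spread within groups. The p-values of that fit can therefore be too small.

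Rcan1 and ENSRNOG00000000875 passed no test of IP against input with TMM scaling. For Rcan1 the log2 fold change was 0.18 (SE 0.52, 95% interval -0.93 to 1.29, edgeR adjusted p = 0.987) in PE cells and 0.55 (SE 0.53, interval -0.57 to 1.67, adjusted p = 0.834) in mock cells. Averaged over both treatments it was 0.36 (SE 0.37, interval -0.42 to 1.15, edgeR adjusted p = 0.723). These intervals reach past 2-fold in the upward direction, so a moderate enrichment was not detectable at this spread. Without IP of mock replicate 2 the averaged value for Rcan1 was -0.04.

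For ENSRNOG00000000875 the sign of IP against input differed between treatments. The log2 fold change was 0.31 (SE 0.35, 95% interval -0.43 to 1.05, edgeR adjusted p = 0.902) in PE cells and -0.50 (SE 0.35, interval -1.25 to 0.24, adjusted p = 0.695) in mock cells. Averaged, it was -0.09 (SE 0.25, interval -0.62 to 0.43, edgeR adjusted p = 0.923). In PE cells each IP library, from 1158 to 1323 CPM, was above each input library, from 921 to 1034 CPM. In mock cells the IP libraries, from 66.9 to 204 CPM, overlapped with the input libraries, from 182 to 270 CPM. Without IP of mock replicate 2, the value in mock cells was -0.14. With all libraries, taken as pairs, it was -0.65 (SE 0.28, 95% interval -1.25 to -0.04, edgeR adjusted p = 0.346). The paired value in PE cells was 0.31 (SE 0.27, edgeR adjusted p = 0.730).

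In PE cells, the groups of IP and input libraries did not overlap for 2 of the 3 genes, Ankrd1 and ENSRNOG00000000875, beside 22.2% of all genes tested in either direction. In mock cells this held for 1 of 3, Ankrd1, beside 17.9%. Without pairing, 0 of the 3 genes were past the edgeR threshold in PE cells, beside 2.11% of all genes. In mock cells this was 0 of 3 beside 0.743%, and in the averaged contrast 1 of 3 beside 5.88%. For the averaged contrast, the log2 fold change of Ankrd1 ranked 1089 from the top among the 5865 genes of at least 10 CPM, that of Rcan1 2052 and that of ENSRNOG00000000875 3451. By point estimate, many genes thus stood further above input in the precipitates than any of the 3. The median SE over all genes was 0.81 in that contrast, against 0.22 for Ankrd1, so such ranks are loose.

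**Figure D4:**
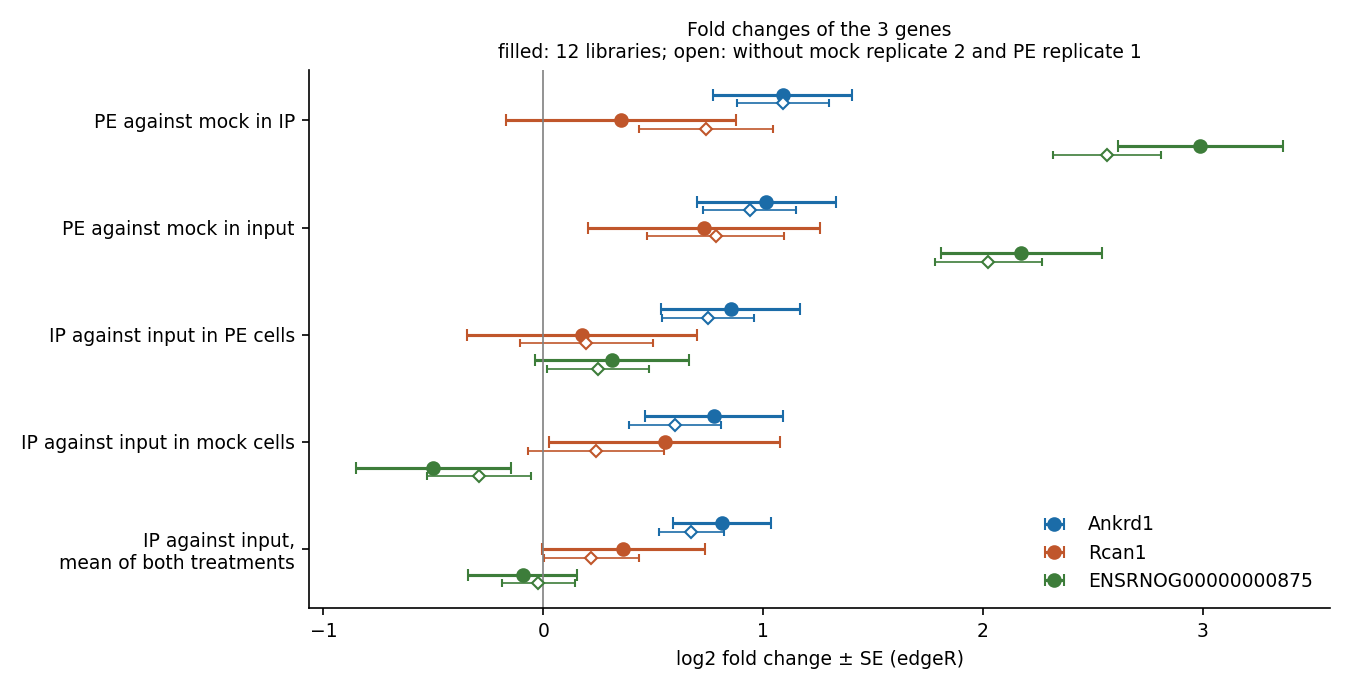
Log2 fold changes with their SE (horizontal axis) for PE against mock in each RNA pool and for IP against input in each treatment and averaged. Filled circles use 12 libraries and open diamonds the 8 libraries without mock replicate 2 and PE replicate 1. Ankrd1 lies near 1 for PE and between 0.67 and 0.81 for the averaged IP contrast, and ENSRNOG00000000875 between 2.02 and 2.99 for PE and near 0 for the averaged IP contrast.

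The level of IP against input depended on the scaling. Scaled to library totals with no composition factor, the median over the 10491 genes moved up by 1.09 in PE cells, 1.21 in mock cells and 1.15 in the averaged contrast. On that scale the averaged value was 1.88 for Ankrd1, 1.37 for Rcan1 and 1.05 for ENSRNOG00000000875, and all 3 passed (edgeR adjusted p = 0.000828, 0.0376 and 0.0127), as did 27.5% of all genes tested, 2823 of them higher in IP and 65 lower. Taking the shift of all genes off these values leads back near the TMM-scaled ones by construction, so it adds no separate support. As shares of library totals, Ankrd1 held 8193 ± 2833 CPM in IP and 2264 ± 1180 in input of PE cells (SD, n = 3 each). In mock cells it held 3527 ± 1265 in IP and 944 ± 515 in input (SD, n = 3 each).

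**Figure D5:**
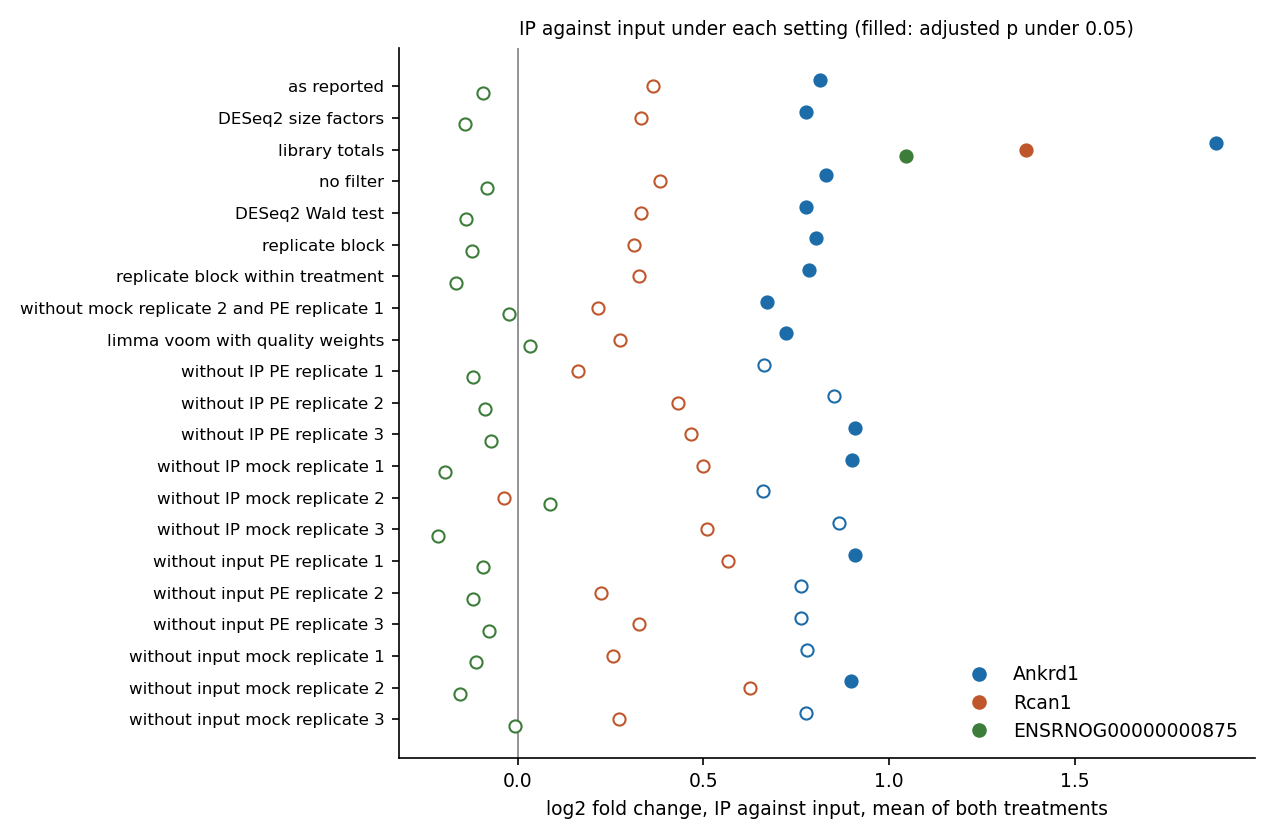
Log2 fold change of IP against input averaged over both treatments (horizontal axis) as reported and under each of 20 alternatives, with filled points for an edgeR, limma or DESeq2 adjusted p under 0.05. Ankrd1 is above 0 throughout, from 0.66 to 1.88, while Rcan1 and ENSRNOG00000000875 pass with library totals only.

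The change of enrichment with PE, the IP contrast of PE cells less that of mock cells, equals the difference of the PE responses of the 2 pools and is given without a p for that reason. It was 0.08 (SE 0.44) for Ankrd1, -0.38 (SE 0.74) for Rcan1 and 0.81 (SE 0.50) for ENSRNOG00000000875 on the log2 scale. With input and IP taken as pairs by number, it was 0.09 (SE 0.28), -0.23 (SE 0.39) and 0.96 (SE 0.38), in the same order of genes. For Ankrd1 the difference between pools was smaller than its error, which leaves room for a moderate difference either way. For ENSRNOG00000000875 the value was positive under all 20 alternatives, from 0.45 without IP of mock replicate 2 to 1.05 without IP of mock replicate 3. For Rcan1 it ran from -0.90 without input of mock replicate 2 to 0.43 without IP of mock replicate 2.

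By mean level, Ankrd1 stood in the order 5238 ± 1776 CPM in IP of PE cells, 2903 ± 749 CPM in input of PE cells, 2462 ± 836 CPM in IP of mock cells and 1437 ± 272 CPM in input of mock cells (SD, n = 3 each). Input of PE cells and IP of mock cells, neighbours in that order, overlapped. ENSRNOG00000000875 stood at 1234 ± 83.4 CPM in IP of PE cells, 993 ± 62.9 CPM in input of PE cells, 156 ± 76.9 CPM in IP of mock cells and 220 ± 45.2 CPM in input of mock cells (SD, n = 3 each), and the 2 mock groups overlapped. Rcan1 stood at 209 ± 89.7 CPM in IP of PE cells, 185 ± 92.8 CPM in input of PE cells, 164 ± 121 CPM in IP of mock cells and 111 ± 57.9 CPM in input of mock cells (SD, n = 3 each). All neighbouring groups of Rcan1 overlapped.

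Across the 12 libraries, Pearson's r of log2(CPM + 1) was 0.79 between Ankrd1 and Rcan1, 0.58 between Ankrd1 and ENSRNOG00000000875 and 0.23 between Rcan1 and ENSRNOG00000000875. These are descriptions over libraries that fall into 4 groups and share the deviating replicates. Of the 5864 other genes with a mean of at least 10 CPM, those most like Ankrd1 were ENSRNOG00000002097 (r = 0.96) and ENSRNOG00000019791 (r = 0.92). ENSRNOG00000002097 averaged 260 CPM in IP and 108 CPM in input of PE cells, and 106 CPM in IP and 60.1 CPM in input of mock cells, the same order as Ankrd1. Most like Rcan1 were ENSRNOG00000003596 (r = 0.94) and ENSRNOG00000028238 (r = 0.93), whose log2 fold changes of PE against mock in IP were 0.22 (SE 0.54) and 0.01 (SE 0.46). Most like ENSRNOG00000000875 were ENSRNOG00000031934 and ENSRNOG00000013683 (r = 0.91 each). ENSRNOG00000013683 averaged 88.7 CPM in IP of PE cells and 6.44 CPM in IP of mock cells, and 21.4 CPM in input of PE cells and 5.17 CPM in input of mock cells.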

How the data were processed

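Per the labels, 3′ end libraries were made with 15 cycles. The authors deposited 1 table of unnormalized gene counts. Build Rnor_6.0, STAR 2.7, featureCounts 1.6.4, cutadapt 2.5 and DESeq2 appear in the submitters' processing notes, and options, annotation and strand setting were not given in the sources used here. Totals were 1423334 to 30216559 counts. Blank lines (32883) hold no counts and were skipped. Columns were matched to samples by RNA pool, treatment and replicate number.

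edgeR 4.0.16 in R 4.3.3 fitted the 4 group means of 12 libraries (TMM, filterByExpr, 10491 genes kept, robust quasi-likelihood F-test, Benjamini-Hochberg adjustment over all genes, threshold 0.05). SE is the size of a log2 fold change over the square root of F. Alternatives were DESeq2 1.42.0 (size factors, Wald test), library totals, no filter, 6 libraries alone, replicate blocks, limma 3.58.1 voom with quality weights, and libraries left out. The steps for the averaged contrast of IP against input were also run on simulated counts. Those counts held no deviating replicates and no pairs, so the run does not bear on either. The lowest chi-square per degree of freedom between libraries of 1 group was 7.79, so none was a duplicate. No label says that replicates were separate cultures, so p-values reflect only how these samples spread, perhaps technically.

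The genes, tests and alternatives were chosen with earlier results of these data known. Named genes were the 3 listed and, for each, the 2 with the highest Pearson r of log2(CPM + 1) over 12 libraries among genes of at least 10 CPM. The lists for calcineurin-NFAT, titin-linked and FHL proteins, the fetal programme, receptors, Cpeb genes and cell type markers could not be used, since 0 identifiers could be tied to a symbol.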

Additional observations from a re-analysis of the deposited data

How the results depend on the processing

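Values are log2 fold changes. PE against mock kept a positive sign under all 20 alternatives for Ankrd1 (0.78 to 1.40 in IP, 0.78 to 1.26 in input) and ENSRNOG00000000875 (2.56 to 3.23 and 2.02 to 2.47). For Rcan1 in IP it was -0.057 to 1.16 with single libraries left out, and its change of enrichment was -0.90 to 0.43.

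For Ankrd1, IP against input in PE cells passed with library totals (1.86), the replicate block within treatment (0.83, edgeR adjusted p = 0.0425), voom (0.84, adjusted p = 0.0180) and without mock replicate 2 and PE replicate 1 (0.75), and it was 0.55 to 1.07 with single libraries left out. In mock cells it passed with library totals only (1.90). Of all genes, 4.01% passed in PE cells with that block and 9.08% without those replicates, a fit whose p-values can be too small. With library totals 27.5% of all genes passed in the averaged contrast. No such share was taken for library totals by treatment or for voom. Averaged, IP against input for Ankrd1 was 0.66 to 0.91 with single libraries left out, with edgeR adjusted p from 0.0251 to 0.119. For Rcan1, single libraries left out gave -0.23 to 0.62 in PE cells, -0.25 to 1.08 in mock cells and -0.037 to 0.63 averaged, and library totals gave 1.37 averaged. For ENSRNOG00000000875, library totals gave 0.72 in mock cells and 1.05 averaged, voom 0.033 averaged, and single libraries left out -0.21 to 0.088 averaged. Library totals lack a composition factor by construction; the cause of the other moves was not tested.

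Same-numbered input and IP libraries of 1 treatment deviated together with r over 0.1 in 5 of 6 pairs (0.016 to 0.34), which included all 3 mock pairs. Differently numbered ones had r from -0.42 to 0.34. For PE and mock libraries of 1 pool, 2 of 6 same-numbered pairs were over 0.1 (-0.38 to 0.26). Differently numbered ones there had r from -0.38 to 0.44. The main fit took no libraries as pairs, and the block within treatment paired input and IP by number. Beside the call named above, neither replicate block (by number, or within treatment) changed a call. The spread of 3 libraries a group limits all intervals.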
